A study of Homo sapiens with 9 samples.

Results

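HepG2 cells, a human line derived from a hepatocellular carcinoma, were compared after delivery of the vitamin D receptor (VDR) without its hormone and after delivery of an empty virus, across 17687 genes with a symbol. The comparison took 6 of the 9 arrays of the study: 3 of cells given Ad-VDR, an adenovirus that encodes human VDR, and vehicle (VDR cells), and 3 of cells given Ad-C, an adenovirus without an insert, and vehicle (control cells). The remaining 3 arrays held cells given Ad-VDR and 10 nM VitD, the active hormone (VDR+VitD cells). All cells were exposed to virus for 48 h at the same dose and then to vehicle or VitD for 4 h, and each of 3 independent experiments gave 1 array of every group. Every control array therefore had a VDR array of its own experiment, and the experiment was a block in the fit. VDR came from a viral cDNA in a single cell line, so an effect of the receptor and an effect of its delivery by this virus preparation cannot be told apart. Vehicle cells received no VitD, but the methods name newborn calf serum in the medium, and ligand in that serum was not measured here.

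VDR is a nuclear receptor that binds DNA as a pair with a retinoid X receptor. With its hormone it recruits coactivators to target genes, and without it the pair can sit on DNA with corepressors. VDR is scarce in hepatocytes, and HepG2 cells have little of their own, so that Ad-VDR adds the receptor to cells that nearly lack it. The comparison thus asks which transcripts differed when the receptor was present and VitD was not added.

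Values were log2 signals of the Clariom S array after RMA, a procedure that corrects background, gives all arrays the same distribution and summarises the probes of a transcript. The lowest value was 2.47 and the highest 18.24, and array medians lay between 6.16 and 6.20. RMA makes the medians alike, so they cannot show whether an array stood apart. No pair of arrays was identical. Albumin (ALB) lay between 16.50 and 16.96 on the 9 arrays, and none of the 6 measured hepatocyte markers was called. All 6 were above 0, beside 9000 of all 17687 genes. In 3 of the 6 all VDR arrays lay above all control arrays, beside 6.61% of all genes. AFP, the fetal counterpart of albumin, had the largest difference (0.45, limma adjusted p = 0.16). Markers of stellate, endothelial, macrophage and bile duct cells had no called member among 5, 4, 4 and 4 measured. KRT19, a keratin of bile duct cells, was at 13.08, 13.04 and 13.01 in control cells and at 12.48, 12.28 and 12.49 in VDR cells. The groups did not overlap, but KRT19 did not pass (-0.63, limma adjusted p = 0.0867). KRT19 alone of the 4 measured bile duct markers was below 0, with 3 above and a median of 0.04. What part these markers have in the results below was not tested. PECAM1, a marker of endothelial cells, lay between 4.00 and 4.79, within the lower part of the scale. Its VDR arrays all lay above its control arrays, but it did not pass (0.47, limma adjusted p = 0.339). All 4 measured endothelial markers were above 0, with a median of 0.18. Precision is limited throughout by the number of arrays, 3 in each group.

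The delivered gene was read first. VDR was at 6.79, 6.04 and 6.21 in control cells of experiments 1, 2 and 3 and at 17.87, 17.87 and 17.80 in VDR cells. The groups were far apart, and the VDR arrays lay close to the highest value that any transcript reached, so the log2 difference of 11.50 (standard error 0.16, limma with Benjamini-Hochberg adjusted p = 2.81e-13) can understate the change. Among 9 measured genes of the receptor, its partners and cofactors VDR was the only member called, beside 0.792% of all genes called. Of the 9, 3 had an unadjusted p under 0.05, the gene VDR among them. In 3, again with VDR, all VDR arrays lay above all control arrays, beside 6.61% of all genes. In 1 they all lay below, beside 6.53%. RXRB, a retinoid X receptor, was at 10.18, 10.05 and 10.17 in control cells and at 10.18, 9.84 and 9.98 in VDR cells, with a log2 difference of -0.13 (standard error 0.12, limma adjusted p = 0.764). RXRG, another retinoid X receptor, stayed between 2.97 and 3.28 in these 6 arrays, near the bottom of the scale. RXRB and RXRG were outside the naming rule given with the processing and do not stand for the other members.

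Of the established targets of the hormone-bound receptor, 2 were called without VitD, both lower. CYP24A1, which encodes the enzyme that breaks down VitD, was at 6.64, 7.70 and 7.84 in control cells and at 5.25, 6.08 and 6.04 in VDR cells. The groups did not overlap, and the log2 difference was -1.60 (standard error 0.20, limma adjusted p = 0.00257). IGFBP3, a carrier of insulin-like growth factors, was at 12.39, 12.24 and 12.11 in control cells and at 11.08, 11.74 and 11.21 in VDR cells, a difference of -0.90 (standard error 0.17, limma adjusted p = 0.0292). Of 20 measured established targets these 2 were called lower, none was called higher, and the median log2 difference was -0.17, beside 0.0033 over all genes, of which 0.543% were called lower and 0.249% higher. TXNIP, an inhibitor of thioredoxin picked after its values were seen, had a difference of 0.98 in the other direction that did not pass (standard error 0.26, limma adjusted p = 0.134), at 10.41, 8.91 and 10.23 in control cells and 10.95, 10.65 and 10.88 in VDR cells. The call of CYP24A1 held without each of the 6 arrays, while that of IGFBP3 was lost without control replicate 1 or 3 or any VDR replicate (limma adjusted p up to 0.165) and without the block (0.0638). CYP27B1, which makes the hormone, was between 3.66 and 4.20 in the 6 arrays, with a log2 difference of -0.09 (standard error 0.15).

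Over all genes, Ad-VDR with vehicle changed 140 genes against control virus, which is 0.792% of those tested. Calls required more than a 1.5-fold change together with an adjusted p below 0.05. Higher in VDR cells were 44 genes, VDR among them (0.249%), and lower were 96 (0.543%). Each of the 140 moved the same way in 3 of 3 experiments, beside 5473 of all 17687 genes. The calls rest on these same experiments, so this is not separate support for them. An unadjusted p under 0.05 was reached by 1937 genes. Without the experiment as a block the fit called 72 genes, all of them among the 140, and with only the 6 control and VDR arrays in a blocked fit it called 74. Leaving out 1 array called between 48 genes (without control replicate 2) and 80 (without control replicate 3), and leaving out a whole experiment called between 29 and 55. There were 38 genes, 10 higher and 28 lower, whose call held without each of the 6 arrays in turn. Of these, 21 also held without each experiment and without the block: VDR, G6PC1 and MIXL1 were higher, and CCN1, ANXA3, KRTAP3-1, FLRT3, TAGLN, ZNF114, KRTAP2-3, AKAP12, SLC40A1, CAVIN2, PLXNC1, ZNF804A, TNS4, RAB3B, LARS1, MOSPD1, SERPINE2 and RHOF were lower. When the test asked for a change beyond 1.5-fold itself (limma treat), 13 genes passed, 3 higher and 10 lower.

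**Figure D1:**
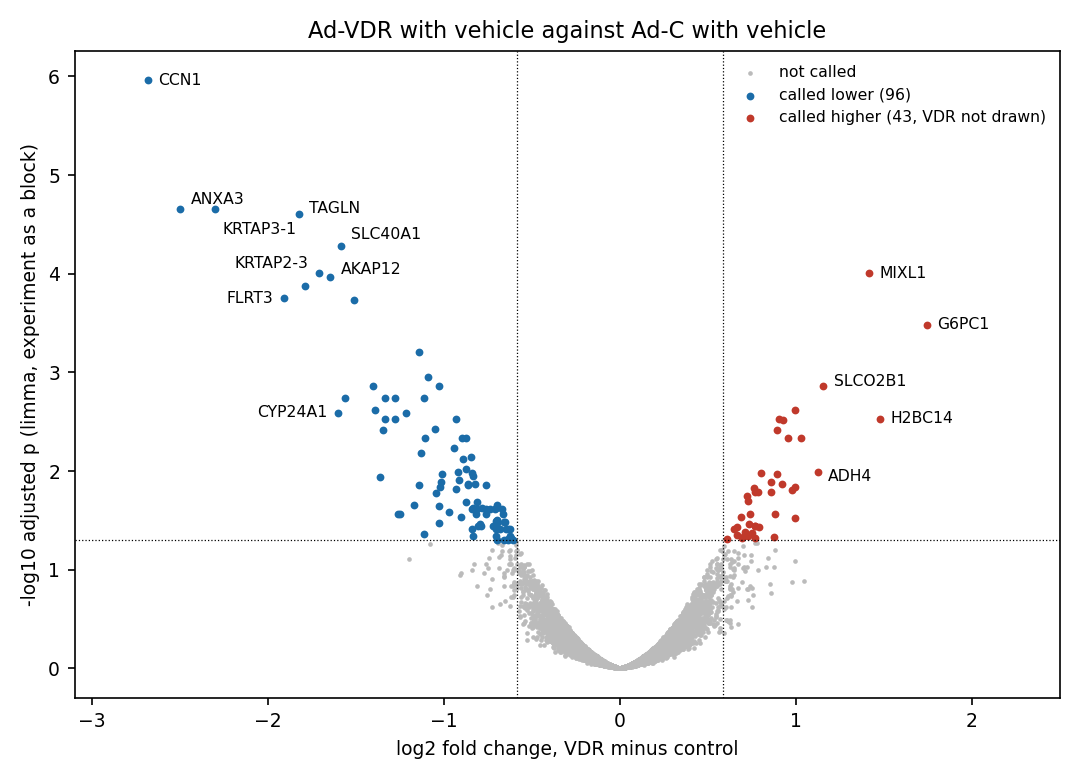
Log2 difference between VDR and control cells (horizontal axis) against -log10 of the adjusted p from limma (vertical axis), with 1 point per gene and VDR, at 11.50, not drawn. The 96 genes called lower (blue) reach to -2.68 at CCN1, the 43 drawn genes called higher (red) reach to 1.74 at G6PC1, and the dotted lines mark an adjusted p of 0.05 and a fold-change of 1.5.

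The largest fall was that of CCN1, which encodes a secreted matricellular protein that binds integrins and is a target of YAP, the effector of the Hippo pathway. CCN1 was at 11.72, 12.16 and 11.73 in control cells and at 9.21, 9.35 and 9.00 in VDR cells. Every VDR array lay more than 2 units below every control array, a 6.42-fold fall (log2 difference -2.68, standard error 0.14, limma adjusted p = 1.09e-06). CCN2, its paralog, was at 13.66, 13.58 and 13.37 against 13.34, 13.52 and 13.23, and its groups overlapped (log2 difference -0.17, standard error 0.17, limma adjusted p = 0.778). ANKRD1, a nuclear ankyrin-repeat protein and a further YAP target, was at 12.15, 12.48 and 12.09 in control cells and at 10.71, 11.32 and 10.68 in VDR cells. Its groups did not overlap (log2 difference -1.34, standard error 0.18, limma adjusted p = 0.00298). Of 17 measured YAP and TGF-beta targets, CCN1 and ANKRD1 were called lower and none higher, beside 0.543% and 0.249% of all genes. Below 0 were 15 of the 17, beside 8630 of all 17687 genes, and the median was -0.17.

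The promoter of ANKRD1 is shown because TEAD factors, through which YAP acts on DNA, recognise the letters CATTCC. The 250 bases before its start come from RefSeq (GRCh38.p14, chr10:90921088-90921337, minus strand), and capitals mark these letters as read on the opposite strand, 220 and 128 bases before the start.
ANKRD1: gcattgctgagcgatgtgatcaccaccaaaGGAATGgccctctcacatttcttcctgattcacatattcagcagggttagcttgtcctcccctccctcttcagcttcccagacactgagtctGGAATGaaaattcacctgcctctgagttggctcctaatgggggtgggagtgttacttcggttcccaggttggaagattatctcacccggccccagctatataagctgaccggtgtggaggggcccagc
On either strand the letters were in the windows of 7 of 13 measured YAP and TGF-beta genes that had a window (53.8%). They were also in 8 of 19 windows of measured actin and SRF genes (42.1%), and in 11.9% of all 35116 windows of that length. A match describes the letters and not a bound site. RefSeq promoter windows were at hand for 115 of the 140 called genes.

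Of the measured genes of the actin cytoskeleton and its regulator SRF, 2 were called lower. TAGLN encodes transgelin, an actin-binding protein and a classical target of the serum response factor SRF. It was at 10.03, 10.16 and 9.84 in control cells and at 8.11, 8.24 and 8.20 in VDR cells, so that the groups lay apart by well over 1 unit (log2 difference -1.83, standard error 0.13, limma adjusted p = 2.46e-05). FHL2, a LIM-domain protein that binds SRF and integrins, was at 9.09, 9.59 and 9.92 against 8.38, 7.91 and 8.91. The groups did not overlap but each spread over nearly 1 unit (log2 difference -1.13, standard error 0.17, limma adjusted p = 0.00661), and the call was lost without VDR replicate 2 (0.0549) and without the block (0.0813). Of 22 measured actin and SRF genes TAGLN and FHL2 were called lower and none higher, beside 0.543% and 0.249% of all genes. The other 20 did not pass, 17 of the 22 were below 0 and 5 above, 11 had an unadjusted p under 0.05, and the median was -0.33. In 12 of the 22 the VDR arrays all lay below the control arrays, beside 6.53% of all genes. Mean levels of the list were 10.61, 10.76 and 10.70 in control cells and 10.30, 10.29 and 10.35 in VDR cells. Of the members that did not pass, TPM4, a tropomyosin, had -0.54 (limma adjusted p = 0.0886), CNN2, a calponin, had -0.53 (0.0881), VCL, the adhesion protein vinculin, had -0.53 (0.114), and ACTA2, smooth muscle actin, had 0.14 (0.762). These 4, like CCN2, were picked after their values were seen. The degenerate CArG box, which SRF binds, was in 9 of 19 windows of the list (47.4%) and in 1.16% of all windows.

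ANXA3, an annexin that binds membrane phospholipids in the presence of calcium, was at 9.19, 10.12 and 9.60 in control cells and at 6.87, 7.75 and 6.79 in VDR cells. Experiment 2 was the highest in each group, while experiments 1 and 3 changed order (log2 difference -2.50, standard error 0.17, limma adjusted p = 2.22e-05). ANXA3 was the only called member of 12 measured annexins, beside 0.792% of all genes called. FLRT3, a membrane protein of cell adhesion and FGF signalling, was at 11.13, 11.64 and 10.94 against 9.05, 9.91 and 9.02. Here too experiment 2 was the highest in both groups (log2 difference -1.91, standard error 0.18, limma adjusted p = 0.000176). CAVIN2, a coat protein of caveolae, was at 12.79, 12.90 and 12.81 against 11.09, 11.57 and 11.30, with no overlap (-1.51, limma adjusted p = 0.000185). SEMA3A, a secreted guidance cue, and PLXNC1, a plexin receptor of semaphorins, had log2 differences of -1.56 and -1.40 (limma adjusted p = 0.00181 and 0.00137). Their groups did not overlap, although control replicate 1 of SEMA3A, at 7.56, lay below the other control arrays, both at 8.45. TNS4, a tensin of focal adhesions, and SERPINE2, a secreted protease inhibitor, picked after their values were seen, had -1.34 and -1.09. LOXL4, a collagen cross-linking oxidase, and TIMP1, an inhibitor of metalloproteases, were called lower (-0.87 and -0.61). Of 26 measured matrix proteins and integrins no other was called lower and none higher, beside 0.543% and 0.249% of all genes. The call of LOXL4 was lost without control replicate 2 (limma adjusted p = 0.053), and that of TIMP1 without any 1 of the 6 arrays.

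**Figure D2:**
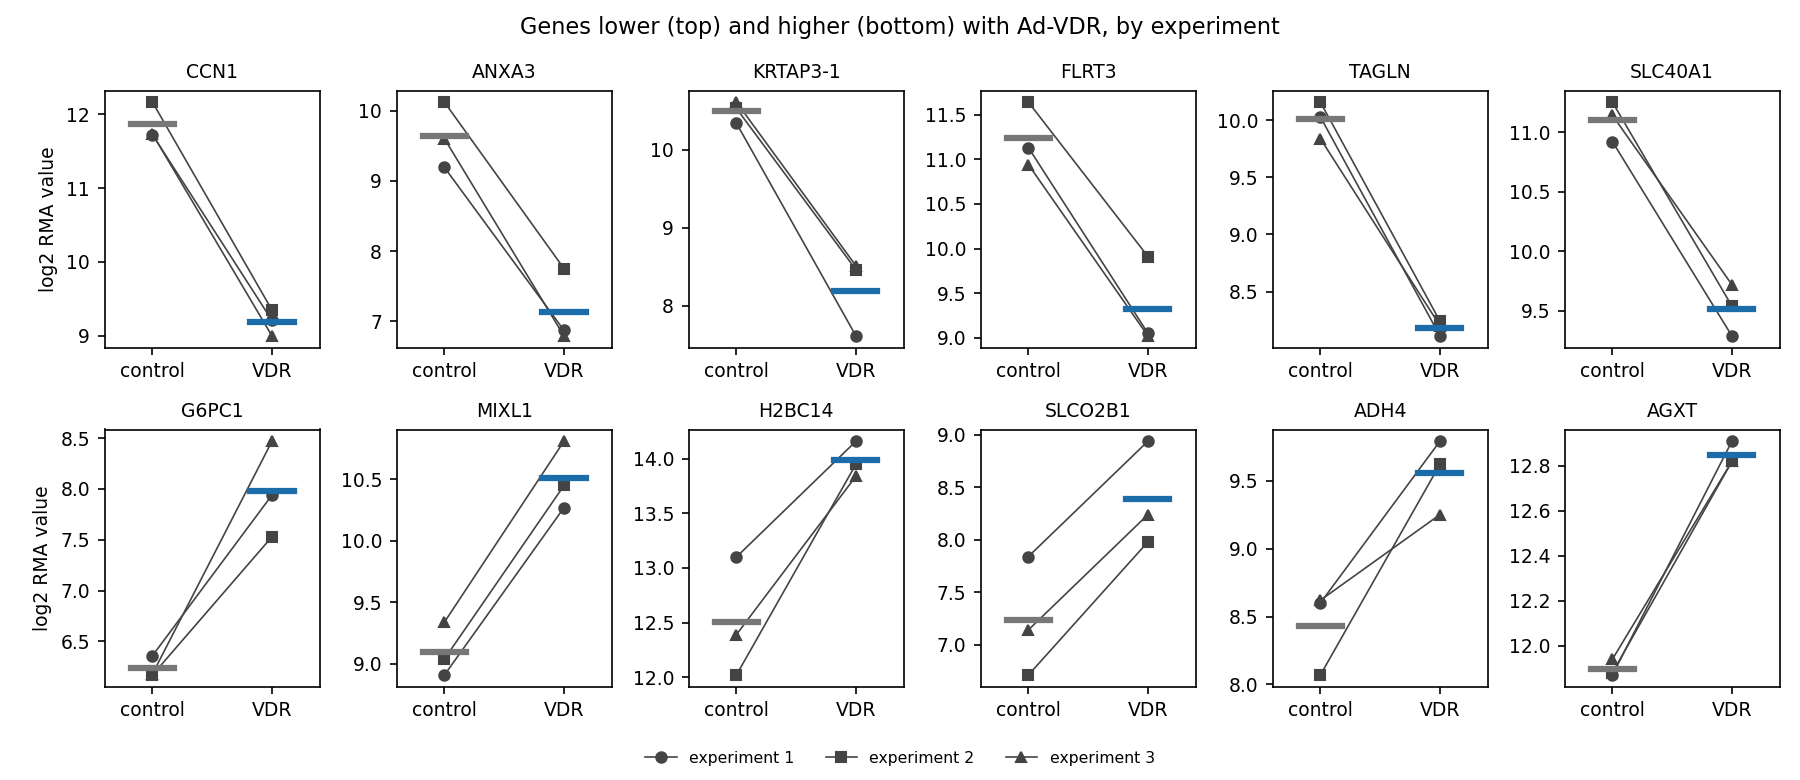
Log2 RMA values of 6 genes called lower (top row) and 6 called higher (bottom row) in control and VDR cells, with 1 line per experiment and a thick bar for the mean of the 3 arrays. All 36 lines run the way of the call, which was made on these same arrays, and the groups do not overlap in any panel. CCN1 falls from 11.72 or above to 9.35 or below, and G6PC1 rises from 6.36 or below to 7.53 or above.

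SLC40A1 encodes ferroportin, the only known exporter of iron from cells. It was at 10.92, 11.25 and 11.14 in control cells and at 9.29, 9.54 and 9.72 in VDR cells. The groups lay more than 1 unit apart (log2 difference -1.59, standard error 0.12, limma adjusted p = 5.27e-05). AKAP12, a scaffold for protein kinase A, was at 11.37 ± 0.48 (SD, n = 3) in control cells against 9.22, 10.29 and 9.65 in VDR cells, with no overlap (-1.65, limma adjusted p = 0.000109). LARS1, the leucyl-tRNA synthetase, which was picked after its values were seen, had tight groups, at 11.96, 11.93 and 11.92 against 10.80, 10.85 and 10.74 (-1.14, limma adjusted p = 0.000616). BAAT, which joins bile acids to glycine or taurine, was at 9.15, 9.75 and 9.14 against 7.72, 8.69 and 7.87 (-1.25, limma adjusted p = 0.0272). BAAT was the only called member of 17 measured bile acid genes, beside 0.792% of all genes called. Its call was lost without control replicate 1 or 2 or VDR replicate 1 or 3 (limma adjusted p up to 0.179) and without the block (0.0534). IFI6, an interferon-induced mitochondrial protein, was at 12.54, 12.48 and 12.06 against 10.95, 11.28 and 11.20 (-1.22, limma adjusted p = 0.00257). It was the only called member of 26 measured interferon-stimulated genes, beside 0.792% of all genes called. The median of the 26 was -0.03, and the call of IFI6 held without each array.

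Growth factors and their binding proteins were lower in 4 of 23 measured genes and higher in none, beside 0.543% and 0.249% of all genes. KITLG, the ligand of the receptor KIT, and PDGFA, a platelet-derived growth factor chain, had log2 differences of -0.70 and -0.83 (limma adjusted p = 0.0388 and 0.0136). IGFBP4, a further carrier of insulin-like growth factors, had -0.84 (0.0113) beside IGFBP3 above. Each of these 4 calls was lost without at least 1 of the 6 arrays, those of KITLG, PDGFA and IGFBP4 without control replicate 2 or VDR replicate 2 among others (limma adjusted p up to 0.263, 0.0869 and 0.116). GADD45B, a stress-response gene, was the only called member of 19 in the stress and p53 list, beside 0.792% of all genes called. Its difference was -0.97 (limma adjusted p = 0.0261), and its call was lost without any control replicate or VDR replicate 1 or 3.

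The remaining genes among the 15 largest falls were ZNF114 and ZNF804A, which encode zinc finger proteins, and DEFB1, an antimicrobial defensin of epithelia. Their log2 differences were -1.79, -1.39 and -1.36 (limma adjusted p = 0.000134, 0.00242 and 0.0114). DEFB1 was at 6.32, 7.98 and 7.14 in control cells and at 5.22, 5.87 and 6.26 in VDR cells. Its groups nearly met, and its call was lost without VDR replicate 1 or 2 (up to 0.0948). Among the most abundant called genes, S100A11, a calcium-binding protein, was at 14.26, 14.46 and 14.26 against 13.51, 13.80 and 13.56. BCL2L1, an inhibitor of apoptosis, was at 13.68, 13.87 and 13.53 against 13.14, 13.21 and 12.77. Neither pair of groups overlapped (-0.70 and -0.65, limma adjusted p = 0.0237 and 0.0325), and each call was lost without any 1 of the 6 arrays.

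Keratin-associated proteins, which are known from hair, were a further group among the falls. KRTAP3-1 was at 10.34, 10.53 and 10.61 in control cells and at 7.61, 8.46 and 8.51 in VDR cells, a 4.92-fold fall with no overlap (log2 difference -2.30, standard error 0.16, limma adjusted p = 2.22e-05). KRTAP2-3 was at 9.30, 9.02 and 9.10 against 7.23, 7.47 and 7.59 (-1.71, limma adjusted p = 9.85e-05). Of 32 measured KRTAP genes of chromosome 17, examined after these values were seen, 4 were called lower and none higher. Over all genes the shares were 0.543% and 0.249%. The other called members were KRTAP2-1 (-1.02) and KRTAP2-2 (-0.94). KRTAP2-4 had -0.57 (limma adjusted p = 0.302). The KRTAP2 genes are near-identical copies, so their probes can read each other's transcripts and the values are not 4 separate measurements. The calls of KRTAP2-1 and KRTAP2-2 were lost without VDR replicate 1 or 2, among others.

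After VDR, the largest rise was that of G6PC1. This enzyme, which frees glucose from glucose-6-phosphate in the last step of glucose release, had values of 6.36, 6.17 and 6.18 in control cells and of 7.94, 7.53 and 8.47 in VDR cells. The control arrays lay within 0.2 of each other and every VDR array was more than 1 unit above them, a 3.35-fold rise (log2 difference 1.74, standard error 0.17, limma adjusted p = 0.000328). It was the only called member of 19 measured genes of hepatic glucose handling, beside 0.792% of all genes called. The median of the 19 was 0.05. PCK1, the enzyme at the start of glucose synthesis, had -0.05 (limma adjusted p = 0.964) and was picked after its value was seen.

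ADH4, an alcohol dehydrogenase that also oxidises retinol, was at 8.60, 8.07 and 8.62 in control cells and at 9.79, 9.62 and 9.25 in VDR cells. The groups did not overlap (log2 difference 1.12, standard error 0.17, limma adjusted p = 0.0101), but the call was lost without control replicate 1 or 2 or VDR replicate 1 or 2 (limma adjusted p up to 0.0851). AGXT, the peroxisomal enzyme that removes glyoxylate, was at 11.87, 11.88 and 11.94 against 12.91, 12.82 and 12.82. Both groups were tight and lay nearly 1 unit apart (0.95, limma adjusted p = 0.00464). SLCO2B1, an uptake transporter for organic anions, was at 7.84, 6.71 and 7.14 against 8.94, 7.98 and 8.24. Experiment 1 was highest in both groups, and the call (1.16, limma adjusted p = 0.00137) held without each array but not without the block (0.122).

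Smaller rises were measured for BHMT, which remethylates homocysteine with betaine (0.75, limma adjusted p = 0.0424), for SLC27A2, a fatty acid transporter also known as FATP2 (0.74, 0.0272), and for UGT2B10, a glucuronidating enzyme (0.69, 0.048). Each of these 3 calls was lost without any 1 of the 6 arrays, with limma adjusted p up to 0.233, 0.161 and 0.302. In the methionine and betaine cycle BHMT alone was called out of 16 measured, beside 0.792% of all genes called. Above 0 were 14 of the 16, beside 9000 of all 17687 genes. The median was 0.24, beside 0.0033 over all genes. The study picked its lipid genes from these same samples, so they are not independent evidence of a direction. Of 9 measured SLC27A2 alone was called, beside 0.792% of all genes called, and the 9 ranged from -0.30 to 0.74. No member was called among 16 genes of fatty acid and cholesterol synthesis, 18 of fatty acid oxidation and lipid droplets, 16 of lipoproteins, 12 drug-metabolizing P450s or 13 hepatocyte transcription factors. Their medians were -0.06, 0.03, 0.03, -0.01 and 0.19, and 3, 4, 2, 1 and 4 members had an unadjusted p under 0.05. Of the hepatocyte transcription factors 11 of 13 were above 0, beside 9000 of all 17687 genes. A list without a call is not thereby shown to be unchanged.

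MIXL1, a homeobox factor of the early mesendoderm that Nodal signalling induces in embryos, was at 8.91, 9.04 and 9.34 in control cells and at 10.27, 10.45 and 10.81 in VDR cells. Experiment 3 was the highest in both groups and the groups lay well apart (log2 difference 1.41, standard error 0.12, limma adjusted p = 9.85e-05). Of 12 measured genes of the Nodal and mesendoderm list MIXL1 was called higher and FLRT3 lower, beside 0.249% and 0.543% of all genes. NODAL itself was between 3.68 and 3.99 in the 6 arrays. IL22RA1, the receptor chain through which hepatocytes respond to interleukin-22, was at 7.85, 7.95 and 8.02 against 9.01, 8.80 and 8.99, with no overlap (0.99, limma adjusted p = 0.00242).

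NFATC2, a calcium-regulated transcription factor, and TNFSF10, the death ligand TRAIL, had rises of 0.99 each (limma adjusted p = 0.0144 and 0.0302). The call of NFATC2 was lost without control replicate 1 or 2 or VDR replicate 2 (up to 0.137), and that of TNFSF10 without any control replicate or VDR replicate 1 or 2 (up to 0.209). LPXN, a focal adhesion adaptor, was at 4.33, 3.99 and 4.71 against 5.38, 5.33 and 5.41, low on the scale in both groups (1.03, limma adjusted p = 0.00464), and its call was lost without control replicate 2 or VDR replicate 2 (up to 0.0549). NFKBIA, the inhibitor of NF-kappaB, was at 11.22, 11.10 and 11.16 against 11.68, 12.26 and 11.91 (0.79, limma adjusted p = 0.0369). NFKBIA was the only called member of 21 acute phase and inflammation genes, beside 0.792% of all genes called. Its call was lost without any control replicate or VDR replicate 2 or 3 (up to 0.251). The remaining genes among the 15 largest rises were SPECC1L-ADORA2A, a readthrough of neighbouring genes (0.98), DMAC1 (0.92) and REEP6, a protein of the endoplasmic reticulum (0.89). REEP6 was at 11.41, 11.48 and 11.42 against 12.40, 12.25 and 12.33, and its call (limma adjusted p = 0.00387) held without each array. The calls of SPECC1L-ADORA2A and DMAC1 were lost without control replicate 2 or VDR replicate 1, among others (up to 0.141 and 0.0949).

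Genes for replication-dependent histones, which package new DNA and are made mainly during DNA synthesis, formed the group with most calls among the lists examined. Of 53 measured members 11 were called higher and none lower, beside 0.249% of all genes called higher. A difference above 0 was measured for 52 of 53, with H2BC4 at -0.02 as the exception, 40 had an unadjusted p under 0.05, and the median was 0.48. In 22 of the 53 all VDR arrays lay above all control arrays, beside 6.61% of all genes. Mean levels of the list were 9.19, 8.77 and 8.87 in control cells of experiments 1 to 3 and 9.64, 9.39 and 9.27 in VDR cells. Experiment 1 was the highest in both groups, and the groups of means did not overlap. In VDR+VitD cells the means were 9.43, 9.26 and 9.10. Many of these genes are near-identical in sequence, so probes can read several of them, and the members are not separate measurements.

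**Figure D3:**
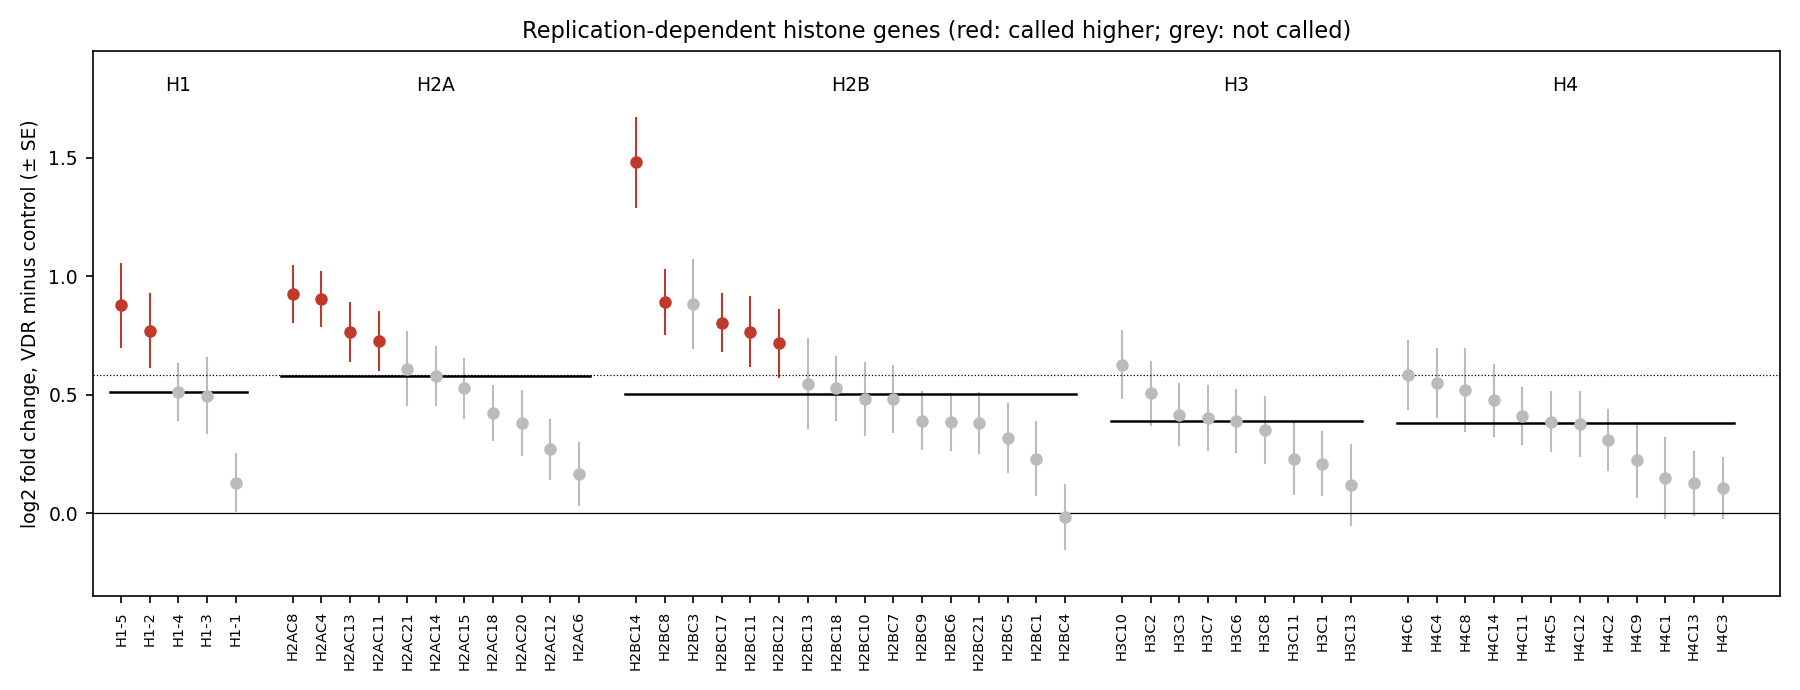
Log2 difference between VDR and control cells for the 53 measured replication-dependent histone genes, sorted within each family, with limma standard errors as bars, the family median as a black line and a dotted line at a fold-change of 1.5. H2BC14 stands highest at 1.48, H2BC4 alone lies below 0, and the 11 called genes (red) are 2 of H1, 4 of H2A and 5 of H2B.

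H2BC14, an H2B gene, was at 13.10, 12.02 and 12.39 in control cells and at 14.16, 13.95 and 13.84 in VDR cells. The control arrays spread over 1 unit, and all VDR arrays lay above them (log2 difference 1.48, standard error 0.19, limma adjusted p = 0.00293). H2AC8, an H2A gene, was at 13.44, 12.75 and 12.73 against 14.34, 13.76 and 13.60 (0.93, limma adjusted p = 0.00304). H2AC4, a further H2A gene, was at 10.66, 10.26 and 10.00 against 11.58, 11.18 and 10.87 (0.90, limma adjusted p = 0.00298). In both H2A genes the order of the experiments was alike in the groups, with experiment 1 the highest, and neither pair of groups overlapped. These 3 histone calls held without each of the 6 arrays, while without the block H2BC14 kept its call (0.0459) and H2AC8 and H2AC4 lost theirs (0.122 and 0.099). The other 8 calls, of H1-2, H1-5, H2AC11, H2AC13, H2BC8, H2BC11, H2BC12 and H2BC17, were each lost without at least 1 array, those of H2BC8 without control replicate 2 or VDR replicate 2 or 3 (limma adjusted p up to 0.105). Leaving out 1 array left between 3 and 9 histone calls, leaving out experiment 2 left none, and the fit without the block called 2. The median stayed between 0.40 and 0.48 in all of these fits.

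The families differed in their calls but less in their medians. Of H1, the linker histones, 2 of 5 measured genes were called, with a median of 0.51. Of H2A 4 of 11 were called (median 0.58), and of H2B 5 of 16 (median 0.51). None of 9 H3 genes and none of 12 H4 genes was called, with medians of 0.39 and 0.38, all of their members being above 0. The difference between families was not tested. All 11 called genes lie in the histone clusters of chromosome 6, where 46 were measured, while the 7 measured on chromosome 1 had no call and a median of 0.42. Genes of DNA replication and mitosis did not show this shift, with a median of -0.05. Of 24 measured members BUB1, a spindle checkpoint kinase, was called lower and none higher, beside 0.543% and 0.249% of all genes. BUB1 had -0.62 (limma adjusted p = 0.0473), and its call was lost without any 1 array. Mean levels of this list were 10.88, 10.77 and 10.86 in control cells and 10.86, 10.64 and 10.83 in VDR cells. PCNA, the sliding clamp of DNA polymerase, had -0.12 (limma adjusted p = 0.831), and SLBP, which binds the stem-loop at the end of histone mRNAs, had -0.20 (0.648). E2F8, an E2F factor of the cell cycle, was called higher (0.78, limma adjusted p = 0.0161), and its call was lost without any 1 array. These 3 genes were picked after their values were seen.

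Promoter sequences of 3 called histone genes are shown because most H2A and H2B windows held an octamer that no other histone window held. All 3 sequences are from RefSeq (GRCh38.p14), written from 5′ to 3′ on the strand of the gene up to the base before its start. Capitals mark the octamer ATTTGCAT, the letters bound by OCT1, and the CCAAT box, each on either strand. H2BC8 (chr6:26216689-26216920, minus strand) is given over the 232 bases that separate its start from that of H2AC8, which is read in the other direction. H2BC14 is at chr6:27814772-27815021 (plus strand) and H2AC4 at chr6:26033619-26033868 (minus strand).
H2BC8: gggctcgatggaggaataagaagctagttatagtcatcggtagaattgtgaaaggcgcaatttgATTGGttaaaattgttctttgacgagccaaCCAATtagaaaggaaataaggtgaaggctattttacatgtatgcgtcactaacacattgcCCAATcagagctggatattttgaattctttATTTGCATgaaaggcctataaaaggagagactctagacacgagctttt
H2BC14: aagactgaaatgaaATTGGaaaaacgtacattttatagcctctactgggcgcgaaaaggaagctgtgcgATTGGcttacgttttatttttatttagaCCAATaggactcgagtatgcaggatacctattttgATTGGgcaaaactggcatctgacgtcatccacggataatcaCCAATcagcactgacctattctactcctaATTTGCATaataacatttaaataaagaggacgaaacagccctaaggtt
H2AC4: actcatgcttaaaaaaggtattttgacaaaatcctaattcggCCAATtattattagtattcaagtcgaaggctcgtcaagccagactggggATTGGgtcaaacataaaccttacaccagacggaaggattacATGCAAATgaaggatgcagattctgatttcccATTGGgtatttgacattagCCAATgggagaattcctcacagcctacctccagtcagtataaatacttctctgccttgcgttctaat
The octamer begins 48 bases before the start in H2BC8 and in H2BC14, whose windows hold 3 and 5 CCAAT boxes. In H2AC4 it is on the opposite strand, 118 bases before the start, beside 4 CCAAT boxes. The octamer was in 21 of 26 windows of measured H2A and H2B genes (80.8%), in none of 23 windows of H1, H3 and H4 genes, and in 1.63% of all windows. The octamer was in 8 of the 11 called histone genes. The CCAAT box was in all 11 and in all 26 windows of H2A and H2B genes. It was also in 16 of 23 windows of H1, H3 and H4 genes (69.6%) and in 32% of all windows. The letters TATAAA were in 71.4% of the 49 histone windows and in 10.7% of all windows. The windows end at the start of each gene, and a missing match says only that the letters are not in these bases.

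**Figure D4:**
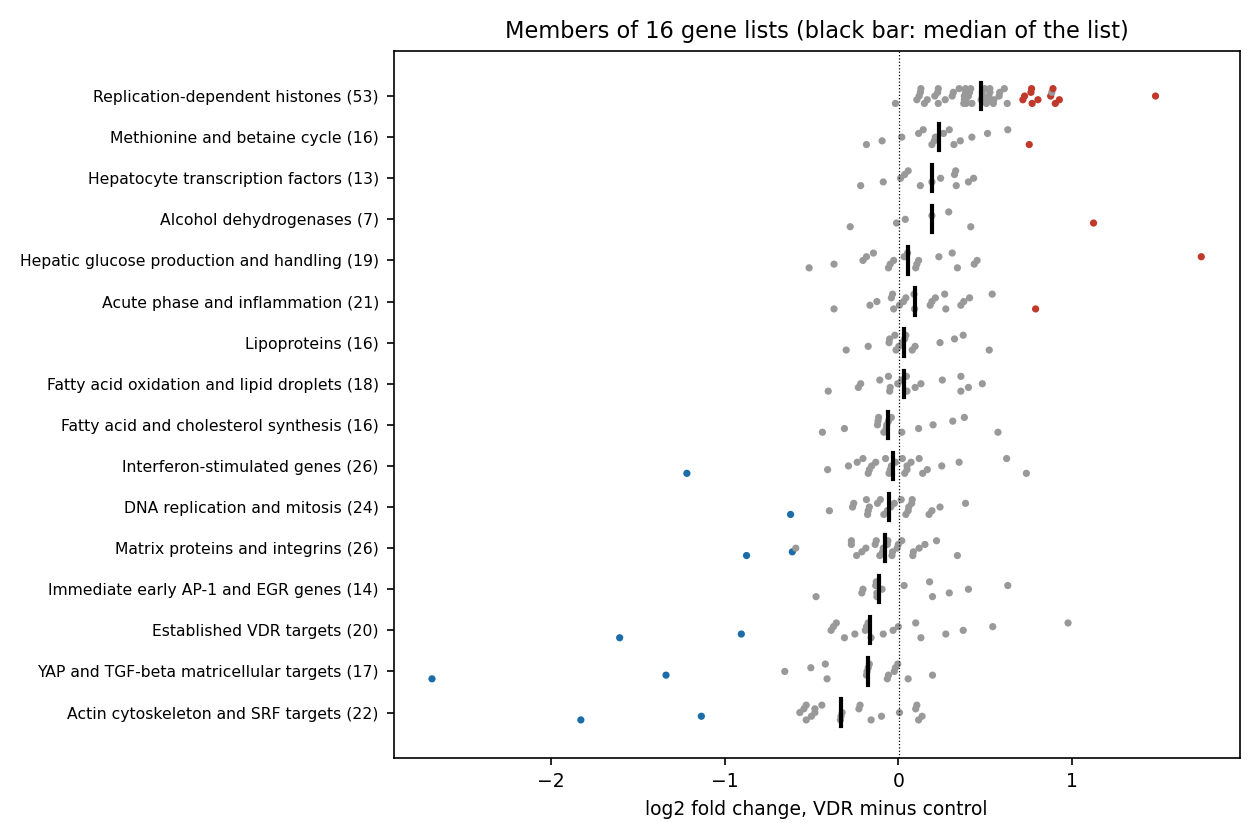
Log2 difference between VDR and control cells for each measured member of 16 of the 38 gene lists (VDR itself is in none of the lists drawn), with the number of members in brackets, called genes in red (higher) or blue (lower), the list median as a black bar and the median of all genes as a dotted line. The histone list has the highest median, 0.48, and the actin and SRF list the lowest, -0.33, while most other medians lie close to 0.

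Several signalling programmes had no called member. None of 14 immediate early genes, 13 feedback genes of the MAPK pathway, 10 BMP targets or 14 Wnt targets was called, and their medians were between -0.11 and -0.02. In that order, the members with the lowest p were NR4A1 (-0.47, limma adjusted p = 0.168), DUSP5 (-0.76, 0.0881), ID3 (0.55, 0.0779) and DKK1 (-0.50, 0.129). The groups overlapped in NR4A1 but not in DUSP5, ID3 and DKK1, and DUSP5 was beyond 1.5-fold. None of 17 genes of calcium and phosphate handling, 16 of retinoic acid metabolism and response or 12 nuclear receptors that pair with RXR was called, with medians of 0.01, 0.03 and -0.05. Unadjusted p-values under 0.05 were reached in these 7 lists by 3, 3, 3, 4, 2, 1 and 3 members. None of these lists is thereby shown to be the same in both groups, since changes near 1.5-fold can miss the threshold with 3 arrays per group.

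Levels in VDR+VitD cells are set beside these values, and since both contrasts use the same VDR arrays no overlap or shared direction between them is counted. Some genes that were lower in VDR cells stood above the control level with VitD. CYP24A1 was at 16.44, 16.38 and 16.38 with VitD, against 5.25 to 6.08 in VDR cells and 6.64 to 7.84 in control cells. AKAP12 was at 11.92, 12.57 and 11.98 with VitD, against 9.22 to 10.29 in VDR cells and at most 11.91 in control cells. LOXL4, at 12.27, 12.47 and 12.06 with VitD, was at most 7.86 in VDR cells and 8.88 in control cells. SERPINB9, an inhibitor of granzyme B, was at 15.79, 15.84 and 15.61 with VitD, against 10.21 to 10.48 in VDR cells and 10.92 to 11.18 in control cells. PDGFA and GADD45B took the same order of levels, with control cells between the other groups. SERPINB9 was outside the naming rule and picked after its values were seen, and its call against control (-0.70, limma adjusted p = 0.0321) was lost without any control replicate or VDR replicate 1 or 2 (up to 0.194).

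Other genes that were lower in VDR cells were lower still with VitD. ANKRD1 was at 9.19, 9.05 and 9.45 with VitD, against 10.68 to 11.32 in VDR cells. KITLG was at 6.36, 6.63 and 6.85 against 9.03 to 9.37, and KRTAP3-1 at 6.61, 7.30 and 6.86 against 7.61 to 8.51. In these 3 genes no array of the VitD group reached the VDR group. CCN1 held between 9.49 and 9.56 with VitD, above VDR cells by 0.34 (standard error 0.14, limma adjusted p = 0.228) and far below control cells. Among genes that were higher in VDR cells, G6PC1 rose further to 11.04, 10.87 and 10.95 and AGXT to 13.69, 13.60 and 14.04. ADH4 was at 8.34 ± 0.32 (SD, n = 3) with VitD, below all VDR arrays and close to control cells, which lay between 8.07 and 8.62. H2BC14 was at 13.78, 12.87 and 12.44, where experiment 1 was again the highest and all arrays lay below those of VDR cells.

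**Figure D5:**
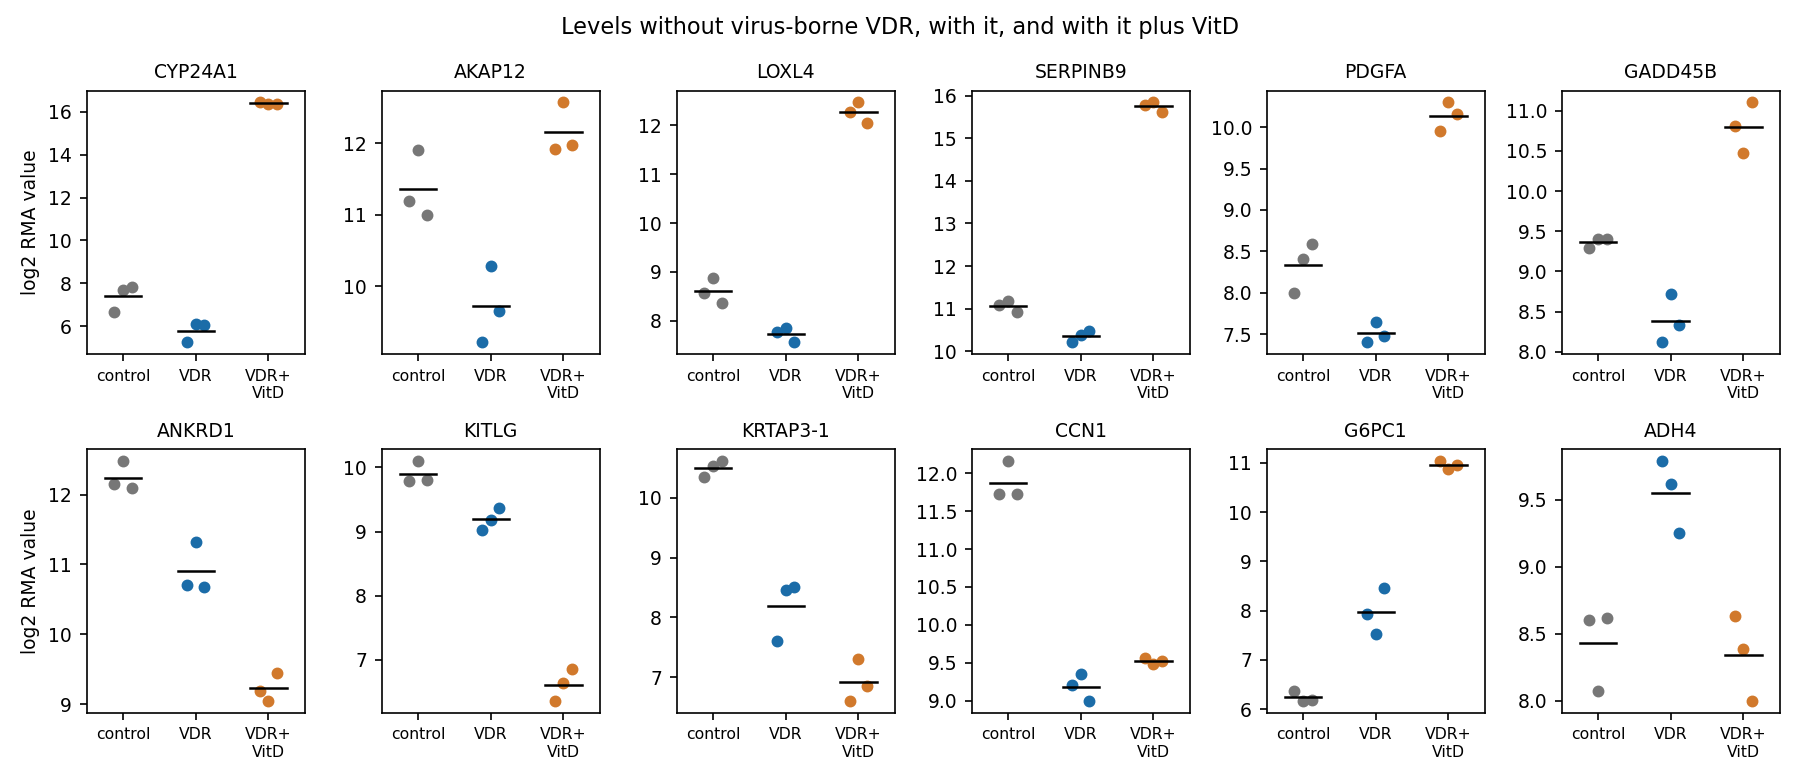
Log2 RMA values of 12 genes in control, VDR and VDR+VitD cells (1 point per array, bar at the mean of 3, each panel with its own axis). CYP24A1, AKAP12, LOXL4, SERPINB9, PDGFA and GADD45B are lowest in VDR cells and highest with VitD, ANKRD1, KITLG and KRTAP3-1 step down through the groups, CCN1 stays low with VitD, G6PC1 steps up, and ADH4 is highest in VDR cells.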

How the data were processed

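RNA of 9 HepG2 cultures was measured on Clariom S arrays. The authors' deposited values are log2 signals per transcript cluster, for which the submitters' processing notes name RMA and Transcriptome Analysis Console 4.0.2. For the genome build, nothing was given in the sources used here. Quantile normalization hides a shift shared by most genes, and values near the top or bottom of the scale understate changes. Of 21448 clusters, 17709 had 1 symbol in the platform annotation (all matched by Entrez identifier to RefSeq), 3739 were unnamed, and averaging clusters of the same symbol (20 genes had several) gave 17687 genes.

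Groups and experiments came from the sample labels. Limma 3.58.1 in R 4.3.3 (lmFit, eBayes) was fitted to all 9 arrays with the experiment as a block, and the two-sided p-values of VDR minus control were adjusted by Benjamini-Hochberg over 17687 genes. A call needed more than a 1.5-fold change and an adjusted p below 0.05, the thresholds that the paper applies to its VitD comparison after a filter on probes. No filter was applied here. The methods name no block. The labels number 3 independent experiments, and the arrays were paired by these numbers. Deviations from the group means correlated with r between 0.121 and 0.145 in the 3 control and VDR pairs of the same experiment. In the 6 pairs of different experiments r was between -0.096 and -0.027. Centring on group means pushes the second range below 0 when the first lies above it, so the ranges are not separate support. The correlations are small, and the pairing rests on the labels.

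The comparison, the naming rule and the 38 gene lists were chosen with earlier results of these data known. The rule names VDR, the 15 largest rises and 15 largest falls, the genes the paper names, in each list up to 4 called members or the member with the lowest p, and the 5 called genes with the highest control level. Values are printed for only some of the genes that it names, and MAT1A, SLC6A12 and ANGPTL8 are among those without. Lists are described by counts and medians, with no set test. The steps were tested on simulated data of this comparison (17687 genes, 10 simulations) and recovered changes of 2-fold or more, while changes of 1.5-fold were recovered only in part and some false calls were made. Alternatives were the fit without the block, the fit of only the control and VDR arrays, a variance prior with an intensity trend or a robust one, a filter on variation, a filter on dim genes, limma treat, re-centred arrays, the brightest cluster per gene, and leaving out each array or experiment. Promoter windows were the 250 bases before each gene start in RefSeq (GRCh38.p14). Samples of 1 group come from separate cultures.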

Additional observations from a re-analysis of the deposited data

Results flagged for a closer look

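Outside the genes with a symbol, the table holds 3739 transcript clusters that were unnamed in the annotation used, and in a limma fit of all clusters 10 of them were called higher with Ad-VDR and 5 lower. TC0900009114.hg.1 stood out with a log2 difference of 4.94 (standard error 0.13, limma adjusted p = 1.36e-09): it was at 9.26, 8.94 and 8.93 in control cells, at 14.01, 14.07 and 13.86 in VDR cells and at 12.90, 12.87 and 12.87 in VDR+VitD cells. The groups did not overlap, and apart from VDR no gene with a symbol had a difference of that size. TC0600007602.hg.1 was higher by 1.34, and TC2100008297.hg.1 and TC0200011138.hg.1 had differences of -1.28 and -1.22. The last of these was at 8.27, 8.23 and 8.27 in control cells, at 7.00, 7.22 and 6.89 in VDR cells and at 11.08, 11.35 and 11.04 with VitD. The files do not name the transcripts that these clusters read, so the difference of 4.94 cannot be given to a human gene, and whether that cluster reads a human transcript or sequence of the virus was not tested.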

How the results depend on the processing

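The count of 140 called genes (44 higher, 96 lower, 11 histone genes) depended on how the spread was estimated. Without the replicate block, limma called 72 genes (18 higher, 54 lower, 2 of them histone genes), and all 72 were among the 140. Named genes whose call was lost without the block included SLCO2B1, FHL2, BAAT, IGFBP3, KITLG, BHMT, UGT2B10, NFKBIA, TNFSF10, TIMP1, BUB1, E2F8 and 9 of the 11 histone genes. A paired fit of only the control and VDR arrays called 74 genes (19 higher, 55 lower, 5 histone genes), of which 71 were among the 140. Limma treat called 13 (3 higher, 10 lower, 0 histone genes). With an intensity trend in the variance prior 210 genes were called, 78 of them higher, and these included all 140. Leaving out 1 array or 1 experiment gave between 29 and 80 calls, between 5 and 31 higher, between 24 and 52 lower, and between 0 and 9 histone genes, and these fits also had fewer samples. Calls higher made up 31.4% of the 140, and between 14.3% and 38.8% over these settings. The robust prior, the filter to 8000 variable genes, the filter that left 9473 brighter genes, re-centring and the brightest cluster gave 131, 167, 175, 138 and 140 calls. Among the genes followed singly under every setting (the called genes and those that the naming rule takes), the sign turned for 2 that did not pass: MOGAT1 (0.14) ranged from -0.12 to 0.44 and PCTP (-0.10) from -0.22 to 0.05 when an array or experiment was left out. In the same fits between 50 and 53 of the 53 histone genes were above 0, against 52 in the fit of all arrays, so uncalled histone genes near 0 turned sign too. The histone median was above 0.39 and the actin and SRF median below -0.27 under every setting run. The causes of these differences between settings were not tested beyond the number of samples or genes that each setting uses. With 3 arrays per group, changes near 1.5-fold and genes near the background or the ceiling of the array are the least certain.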
